A study of Nicotiana tabacum with 12 samples.

Results

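The 101 most abundant gene models of tobacco (Nicotiana tabacum) roots were chosen from 25273 in the table as those averaging 1000 FPKM or more across 12 libraries. FPKM scales fragments by transcript length and library size, so that levels can be set beside each other between models. Between libraries it stays a relative scale. The libraries, 3 per group, are titled WTR, TWTR, CR and TCR. No label spells these codes out, and they are used as given, with neither a genotype nor a nitrogen supply read into them. All 12 share one protocol text, which describes seedlings of an NtLHT1 mutant held hydroponically in LN solution for 15 days, and the series title speaks of low nitrogen tolerance. Whether plants were pooled, and whether replicates were separate plants, is not given. All p-values below therefore compare group differences only with the spread between these libraries, and that spread may be technical.

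NtLHT1 itself was not analysed here, so the labels could not be checked by the mutated gene. LHT1 proteins import amino acids across the plasma membrane of plant cells. In roots, a small set of genes commonly supplies a large part of the messenger RNA. Genes for ribosomal proteins, translation elongation factors, aquaporins, metallothioneins and cell wall proteins are usual among them. Which of the models described here belong to such families is not known. The table gives identifiers beginning with Nitab4.5 and no names, and 0 of them matched an entry of RefSeq for assembly ASM71507v2. The models are therefore described by level and pattern, without roles, and the labelled tissue could not be checked against marker genes.

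The FPKM of a library summed to at least 1099061 and at most 1154691. Absolute depth is unknown. Ratios of low values put CR replicate 2 at 1.83 times CR replicate 1 in depth, and the other 10 libraries at 0.913 to 1.15 times it. The labels give no batch or date.

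The members covered a wide range of levels. Mean FPKM reached at least 5000 in 6 of them and at least 2000 in 22, and 56 lay below 1500. All 101 were above 0 in every library, and 51 stood at 1000 FPKM or more in each of the 12. By group means, 60 members reached 1000 in all 4 groups, 21 in 3 groups, 15 in 2 and 5 in 1. The rule averages over groups, so the last 20 entered through high values in part of the libraries, and a difference between their groups is partly built in. The 5 that passed in a single group are counted below with the others, but where named they are described without a test. At the lower edge, Nitab4.5_0004607g0010 (mean 1003 FPKM) and Nitab4.5_0000033g0130 (1001) were just inside, and Nitab4.5_0005005g0020 (997.7) and Nitab4.5_0003596g0010 (991.7) just outside.

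CR roots gave the smallest part of their signal to these models. The members held 15.32%, 14.96% and 15.3% of the FPKM sum in the CR libraries, and 17.41%, 17.41% and 17.99% in WTR. In TWTR they held 18.69%, 18.45% and 18.5%, and in TCR 18.38%, 18.39% and 18.39%. Every CR library lay below every other library, and WTR lay below TWTR and TCR with no overlap. Group means were 15.2% ± 0.205 in CR, 17.6% ± 0.335 in WTR, 18.4% ± 0.00519 in TCR and 18.5% ± 0.125 in TWTR (SD, n = 3 each). These sums rest on models chosen by level and carry no test. Choosing by the mean over all 12 libraries tends to leave out models high in CR alone.

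Most of the gap between CR and WTR lay at the top of the list. Ranks 2 to 10 held 3.30% ± 0.110 in CR, 4.72% ± 0.0376 in TCR, 3.93% ± 0.0928 in WTR and 4.83% ± 0.0427 in TWTR (SD, n = 3 each). Ranks 11 to 101 differed less in proportion, with 11.5% ± 0.162 in CR, 12.2% ± 0.00840 in TCR, 11.99% ± 0.110 in WTR and 11.97% ± 0.255 in TWTR. From WTR to CR the members' share changed by -2.41 percentage points. The first 3 members made up -2.18 points of that difference and the other 98 summed to -0.235 points. Behind that small remainder were shifts in both directions: over all 101 members, 48 higher shares summed to 2.34 points and 53 lower shares to -4.75 points. From CR to TCR the share was 3.19 points higher, of which the first 3 members gave 2.02. From WTR to TWTR it was 0.943 points higher, with 0.191 from the first 3. TCR and TWTR differed by -0.160 points.

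**Figure D1:**
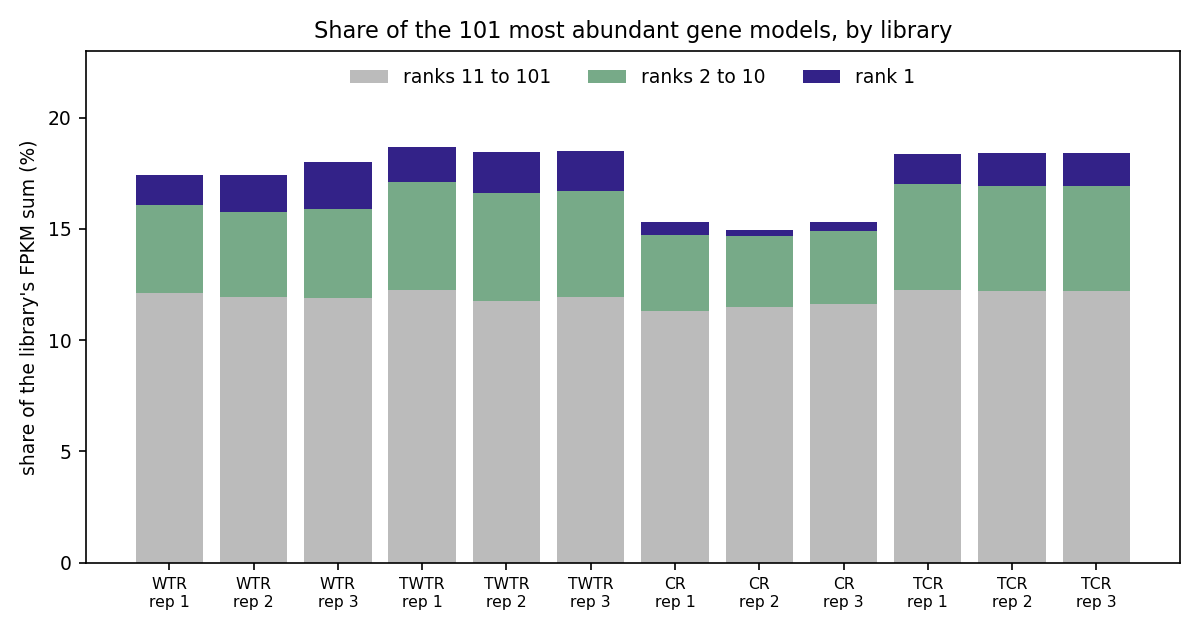
Stacked bars give the percentage of each library's FPKM sum held by the 101 members, split into the member with the highest mean, ranks 2 to 10 and ranks 11 to 101; the x axis lists the 12 libraries. The 3 CR bars end between 14.96% and 15.32%, below all others, and the segment of ranks 11 to 101 differs least between groups.

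The signal of CR roots was also spread over more models. To reach 10% of the FPKM sum took 43, 47 and 44 models in the CR libraries, 33, 32 and 28 in WTR, 25, 24 and 25 in TWTR, and 29, 28 and 28 in TCR. CR had 111, 111 and 115 models of any kind at 1000 FPKM or more, the highest numbers of the 4 groups, and TWTR had 98, 88 and 91, the lowest. The models that were not members summed to 968520 ± 8875 FPKM in CR and 918810 ± 13748 in WTR (SD, n = 3 each). On the relative scale of FPKM, a smaller share of the members leaves a larger one for the rest. In roots measured in bulk, fewer cells of a type and less RNA per cell cannot be told apart either.

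The leading model, Nitab4.5_0000037g0360, had 14930.75, 17968.33 and 23487.23 FPKM in WTR, 17911.93, 20666.32 and 20091.53 in TWTR, 7025.63, 3097.33 and 4364.1 in CR, and 15635.64, 16500.11 and 16473.53 in TCR. It ranked first in all 9 libraries outside CR and 2nd, 10th and 6th in those of CR. The ratio of its highest to its lowest library was the widest among the members. Its share of the sum was 0.422% ± 0.175 in CR and 1.69% ± 0.396 in WTR (SD, n = 3 each). The CR libraries spread most in proportion, with the deepest, replicate 2, at the lowest value. The log2 difference of CR minus WTR was -2.02, and -1.74 without that library.

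Nitab4.5_0000037g0340 carries an identifier on the same scaffold, with 1 other listed model between them, and ranked 3rd by mean. It stood at 7990.45, 7666.27 and 8293.76 FPKM in WTR, 8290.69, 6218.04 and 7671.42 in TWTR, and 8789.48, 8877.9 and 8530.01 in TCR. In CR it stood at 1893.59, 1816.54 and 1975.72, far below all other libraries. On the log2(FPKM + 1) scale used for every difference here, CR minus WTR was -2.07 (SE 0.0857, limma adjusted p 8.84e-09) and TCR minus CR was 2.20 (SE 0.0857, limma adjusted p 3.42e-09). These were the largest fall and the largest rise among the members in those contrasts, which share the CR libraries. In CR it ranked 23rd by group mean, against 2nd, 4th and 2nd in WTR, TWTR and TCR. Neighbouring near-identical copies could share fragments, and how the authors' counting treated them is not given in the sources used here.

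The second model by mean, Nitab4.5_0002224g0100, also had its lowest values in CR. Its levels were 7919.84, 7307.26 and 7934.02 FPKM in WTR, 9164, 11135.36 and 9414.72 in TWTR, 4291.64, 3220.49 and 3811.74 in CR, and 8393.38, 8306.09 and 8432.29 in TCR. It fell from WTR to CR (log2 difference -1.04, SE 0.0967, limma adjusted p 5.95e-06) and rose from CR to TCR (1.16, SE 0.0967, limma adjusted p 1.83e-06). A smaller rise from WTR to TWTR (0.36, limma adjusted p 0.0133) lost its call without TWTR replicate 2 (limma adjusted p 0.0513), without WTR replicate 2 (0.0533) and with quantile normalization (0.201).

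The next models by mean did not share this pattern. Nitab4.5_0001615g0140 stood at 4783.96, 4543.58 and 4415.13 FPKM in WTR and 4199.55, 4624.55 and 4643.52 in CR, where the groups overlapped. In TWTR it had 8001.84, 7194.17 and 7596.58 and in TCR 7190.72, 7044.87 and 6878.33, all above the libraries without the prefix T. It rose from WTR to TWTR by 0.73 (SE 0.0555, limma adjusted p 9.91e-07) and from CR to TCR by 0.65 (SE 0.0555, limma adjusted p 2.21e-06). The second of these calls was lost with quantile normalization (limma adjusted p 0.259). Nitab4.5_0000143g0170 kept within a narrow band, from 5199.32 FPKM in TWTR replicate 3 to 6726.27 in WTR replicate 1. By group it averaged 5678 ± 447 in CR, 5693 ± 146 in TCR, 6423 ± 407 in WTR and 5420 ± 287 in TWTR (SD, n = 3 each). Between WTR and CR it changed by -0.18 at a limma adjusted p of 0.0493, a call that 13 of 22 alternatives ended and that quantile normalization turned to 0.29.

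In CR the leading model was Nitab4.5_0002070g0010, with 8045.88, 7159.56 and 8221.84 FPKM. It had 2382.37, 2101.02 and 2336.35 in WTR, 3674.14, 3226.8 and 3424.75 in TWTR, and 3461.19, 3544.47 and 3437.43 in TCR. CR lay far above the other libraries, WTR lay lowest, and TWTR and TCR overlapped between them. It rose from WTR to CR by 1.78 (SE 0.0681, limma adjusted p 5e-09) and had a TCR minus CR difference of -1.16 (SE 0.0681, limma adjusted p 8.9e-08). With quantile normalization these were 2.63 and -2.12, and its interaction, given further on, was -2.57.

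The lists of leading models overlapped between groups to different degrees. Of the first 10 models by group mean, WTR and TWTR shared 8, WTR and TCR 8, and TWTR and TCR 8. CR shared 7 with WTR, 6 with TCR and 5 with TWTR. Of the first 50, CR shared 32 with WTR, 35 with TCR and 34 with TWTR, while TWTR and TCR shared 44, or 88% of each list.

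**Figure D2:**
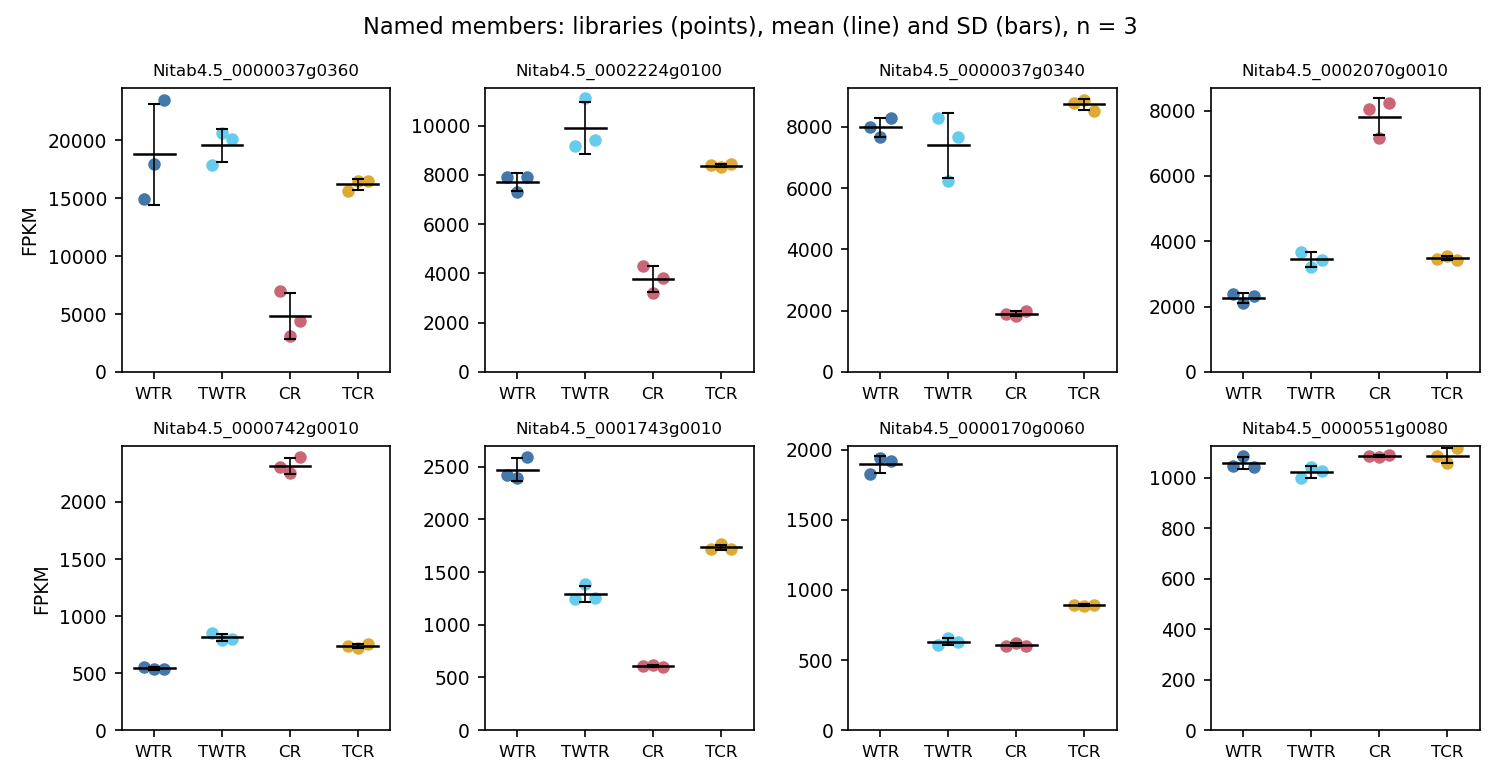
Each panel plots FPKM on a linear axis from 0 for one named member, with a point per library, a line at the group mean and bars of 1 SD (n = 3). The CR points lie below all others in Nitab4.5_0000037g0360, Nitab4.5_0002224g0100, Nitab4.5_0000037g0340 and Nitab4.5_0001743g0010, and above all others in Nitab4.5_0002070g0010 and Nitab4.5_0000742g0010, while Nitab4.5_0000551g0080 stays near one level.

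Members differed in how far they moved. The ratio of the highest to the lowest group mean was under 1.2 in 14 members, 1.2 to 1.5 in 29, 1.5 to 2 in 32 and 2 or more in 26, with 9 of the last at 3 or more. Its median was 1.59, against 1.41 among 225 models of 500 to 1000 FPKM and 1.45 over all 19929 models tested. Replicates of the members were close: the median coefficient of variation was 4.63% in WTR, 6.29% in TWTR, 6.88% in CR and 2.38% in TCR. By limma's F test across the groups, 92 of the 101 members passed, as did 59.3% of all models tested. Among models of 500 to 1000 FPKM 75.1% passed, and among those of 100 to 500 FPKM 79.0%. The members were measured more tightly than most, with a median residual SD of 0.0817 on the log2 scale against 0.139 over all models. This was not particular to them: the value was 0.0924 at 500 to 1000 FPKM and 0.0834 at 100 to 500 FPKM.

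CR was the extreme group most often, among the members as among all models that passed the F test. Among the 92 members that passed the F test, CR had the lowest mean in 37 (40.2%; 32.2% of all models that passed) and the highest in 30 (32.6%; 38.4% of all). TWTR was highest in 27 (29.3%; 29.2% of all) and lowest in 26 (28.3%; 24.8%). WTR was highest in 21 (22.8%; 18.5%) and lowest in 25 (27.2%; 29.1%). TCR was highest in 14 (15.2%; 13.8%) and lowest in 4 (4.35%; 13.9%). The commonest patterns were highest in CR with lowest in TWTR, in 16 members, and highest in TWTR with lowest in WTR, in 14. Patterns were counted in the members only, so whether they mark the members was not tested.

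In 23 members all 3 CR libraries lay below the other 9, as in 11.6% of all models tested. The lowest of the other group means exceeded the CR mean by 1.60-fold in the median member and by 1.04- to 3.90-fold across the set. Their joint share of the signal was 3.03% ± 0.213 in CR, 7.00% ± 0.0889 in TCR, 7.29% ± 0.154 in TWTR and 6.89% ± 0.470 in WTR (SD, n = 3 each). In 20 members all CR libraries lay above the other 9, as in 15.7% of all models. Here the CR mean was 1.32-fold above the next group in the median member, with a range of 1.08 to 2.84. Their joint share was 4.33% ± 0.0272 in CR, 2.67% ± 0.0260 in TCR, 2.45% ± 0.0562 in TWTR and 2.41% ± 0.0332 in WTR. Both sets were formed from these values, so the sums describe them and support nothing further.

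Libraries of the other groups stood apart as well. WTR lay below the other 9 libraries in 21 members (8.49% of all models tested) and above them in 14 (5.43%). TWTR lay above in 18 (7.82%) and below in 9 (5.76%), and TCR above in 4 (2.67%) and below in 2 (2.31%). The distances were mostly small. Among the 18 members highest in TWTR none reached 1.5 times the next group mean, and among the 21 lowest in WTR 2 did.

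**Figure D3:**
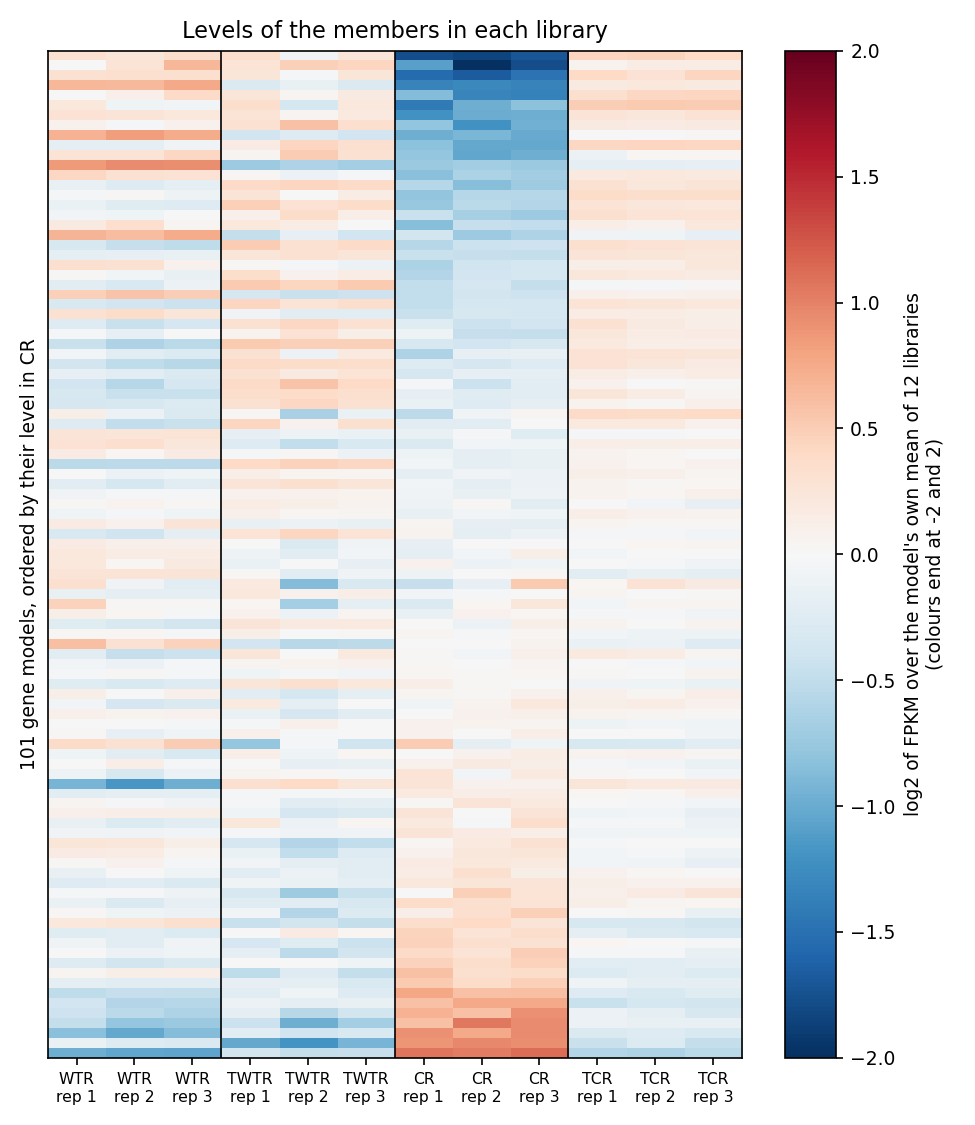
Each row is a member and each column a library; colour gives the log2 ratio of FPKM to the member's own mean over the 12 libraries, and rows are ordered by the level in CR. The widest departures are in the CR columns, low in the upper rows and high in the lower rows, and the 3 libraries of a group resemble one another.

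CR and WTR were compared first. In CR 36 members were higher (23.5% of all models tested) and 34 lower (16.6%), and 31 were not called; 40.1% of all models were called in either direction. The median member difference was -0.01 and the median absolute difference 0.31, against 0.04 and 0.25 over all models tested. Of the members that rose 8 at least doubled (5.23% of all models tested), and of those that fell 13 were at least halved (1.64%). The rule tends to leave out models high in CR alone, so the smaller number of doublings may be partly built in. The balance of calls turned with the scaling, from 37 higher and 34 lower with quantile normalization to 30 and 36 with median-of-ratios scaling and 27 and 38 with equal sums of the models that are not members. Among models of 500 to 1000 FPKM 30.2% rose and 19.1% fell, and among those of 100 to 500 FPKM 30.8% and 22.4%.

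The largest difference upward, ahead of Nitab4.5_0002070g0010, was in Nitab4.5_0000742g0010. It stood at 557.51, 538.82 and 531.79 FPKM in WTR and at 2304.52, 2251.91 and 2394.96 in CR (log2 difference 2.09). TWTR had 851.31, 794.39 and 800.42, and TCR 735.07, 716.66 and 757.73, so that this member passed 1000 FPKM in CR and nowhere else. Its high CR values made it a member, and no test is given for it. By group mean it ranked 16th in CR and 294th in WTR.

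TCR and TWTR, compared next, differed in 31.7% of members and 13.7% of all models tested. Among models of 500 to 1000 FPKM 26.7% were called, and among those of 100 to 500 FPKM 27.0%, closer to the members. In TCR 20 members were higher (7.00% of all models tested) and 12 lower (6.69%), and 69 were not called. None of the members' calls reached a doubling or a halving (0.687% and 0.482% of all models). The share of these calls that were higher, 62.5%, came to 51.4% after rescaling to TPM, where 18 were higher and 17 lower, and to 48.6% with quantile normalization, where 17 were higher and 18 lower. With equal sums of the models that are not members it was 52.8%, so the excess of higher calls depended on the scaling. Without TCR replicate 2 the lower calls numbered 7.

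The largest rises in TCR over TWTR were modest. Nitab4.5_0002712g0010 went from 906.76, 692.54 and 825.49 FPKM in TWTR to 1204.98, 1257.38 and 1340.94 in TCR (log2 difference 0.66, SE 0.115, limma adjusted p 0.00328). Nitab4.5_0000754g0170 went from 693.81, 614.55 and 735.04 to 1032.83, 1158.31 and 1014.34 (0.65, SE 0.0730, limma adjusted p 0.000179). In both, the groups did not overlap.

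The largest falls were in Nitab4.5_0000500g0210 and Nitab4.5_0002944g0200. The first went from 1772.03, 1654.35 and 1764.61 FPKM in TWTR to 1190.07, 1193.32 and 1242.23 in TCR (log2 difference -0.52, SE 0.0606, limma adjusted p 0.000241). The second went from 1307.81, 1498.42 and 1325.83 to 1065.11, 999.32 and 1024.8 (-0.42, SE 0.0965, limma adjusted p 0.0151). This second model averaged 1000 FPKM or more in TWTR and TCR only. Its high TWTR values helped make it a member, so the fall is partly built in. Its call ended without TCR replicate 2 (limma adjusted p 0.0576) and without TWTR replicate 2 (0.0541).

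TWTR roots had 39 members higher than in WTR (20.4% of all models tested) and 30 lower (14.9%), with 32 not called; 35.2% of all models were called. The median difference was 0.04 in the members and over all models alike. At least doubled were 2 members (3.79% of all models tested) and at least halved 3 (2.46%). With median-of-ratios scaling 31 were higher and 31 lower, so the excess of higher calls depended on the scaling. Among models of 500 to 1000 FPKM 22.2% rose and 34.2% fell. Nitab4.5_0002827g0020 rose most, from 636.66, 538.67 and 619.32 FPKM in WTR to 1512.99, 1602.3 and 1435.64 in TWTR (log2 difference 1.34, SE 0.0715, limma adjusted p 4.91e-08). CR, at 1449.14, 1290.84 and 1280.65, and TCR, at 1431.21, 1381.35 and 1374.98, were close to TWTR, so that WTR stood alone.

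Nitab4.5_0000630g0010 followed, from 1828.44, 1614.64 and 1701.29 FPKM in WTR to 3566.43, 3443.32 and 3465.36 in TWTR (log2 difference 1.03, SE 0.0498, limma adjusted p 2.39e-08). TWTR was the highest of its 4 groups. The largest difference downward was in Nitab4.5_0000170g0060, from 1825.9, 1942.25 and 1916.43 FPKM in WTR to 605.14, 658.04 and 627.25 in TWTR (log2 difference -1.59). CR had 601.86, 624.32 and 602.71 and TCR 893.25, 886.14 and 895.16, so this model reached 1000 FPKM in WTR and in no other group. Its high WTR values made it a member, and no test is given. Nitab4.5_0000073g0400 fell from 2619.88, 2887.9 and 2719.27 to 1241.8, 1353.32 and 1242.41 (-1.10, SE 0.0517, limma adjusted p 1.92e-08).

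Between CR and TCR, more members rose than fell. Choosing by the mean over all 12 libraries tends to leave out models high in CR alone, so this excess may be partly built in. In TCR 45 were higher (19.6% of all models tested) and 24 lower (22.1%), and 32 were not called; 41.7% of all models were called. The median difference was 0.06 in the members and -0.01 over all models tested. The members' split ran from 42 higher and 25 lower with quantile normalization to 48 and 18 with equal sums of the other models. At least doubled were 10 (2.94% of all models tested) and at least halved 4 (4.92%). Among models of 500 to 1000 FPKM 23.6% were higher and 32.4% lower.

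After Nitab4.5_0000037g0340, the largest rise from CR to TCR was in Nitab4.5_0000368g0200. It had 524.32, 482.97 and 549.92 FPKM in CR and 2017.14, 1867.37 and 2053.1 in TCR (log2 difference 1.93, SE 0.0744, limma adjusted p 3.17e-09). WTR, at 1885.41, 1899.83 and 1908.69, and TWTR, at 1797.61, 1498.64 and 1803.94, were near TCR. The largest difference downward was in Nitab4.5_0000742g0010, at -1.65 and again without a test. Next came Nitab4.5_0000754g0170. It stood at 2587.52, 2731.87 and 2687.95 FPKM in CR, above its TCR values and its WTR values of 1277.36, 1177.04 and 1152.37. Its TCR minus CR difference was -1.32 (SE 0.0730, limma adjusted p 5.34e-08). Its high CR values raised the mean that made it a member, so this difference is partly built in.

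**Figure D4:**
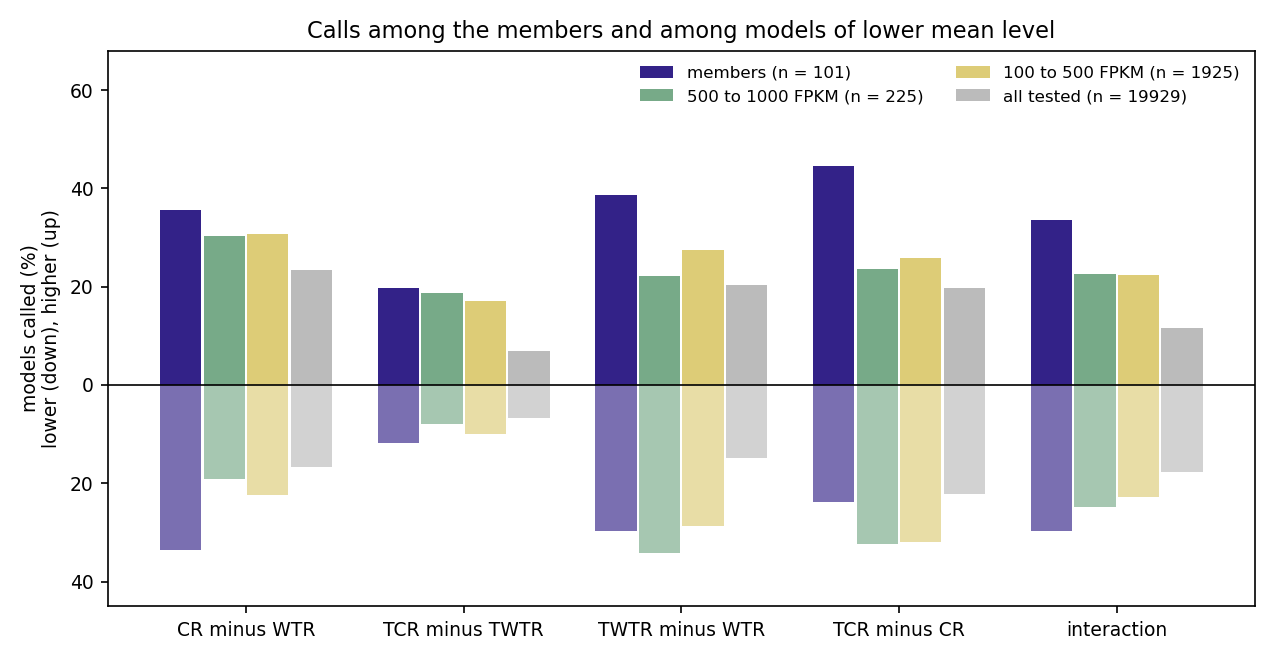
Bars above 0 give the percentage of models called higher and bars below 0 the percentage called lower in each contrast (limma adjusted p under 0.05), for the 101 members, for models with means of 500 to 1000 and 100 to 500 FPKM, and for all 19929 tested. The members' bar for higher calls is tallest in TCR minus CR, at 44.6%, and their bars for TCR minus TWTR are the shortest of the 5 pairs.

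The pair of contrasts that set a T-prefixed group against its unprefixed partner use separate libraries. In both of them 23 members were higher (8.20% of all models tested) and 8 lower (7.69%). Another 8 were higher in TWTR minus WTR and lower in TCR minus CR (3.29%), 10 went the reverse way (2.01%), and 12 were called in neither. Between CR and WTR and between TCR and TWTR the calls coincided less: 8 members were higher in both (2.84%) and 1 lower in both (1.45%). There 9 were higher in CR and lower in TCR (2.51%), and 8 the reverse (1.82%).

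The difference between these changes was tested directly as the interaction, TCR minus CR less TWTR minus WTR. It was positive in 34 members (11.5% of all models tested) and negative in 30 (17.8%), and 37 were not called. Of all models 29.3% were called, as were 47.6% of those of 500 to 1000 FPKM and 45.1% of those of 100 to 500. With quantile normalization 29 members were positive and 34 negative, so the balance of signs depended on the scaling. Of the 64, 15 were higher and 1 was lower in both contrasts but by unequal amounts. Another 8 were higher in TWTR and lower in TCR than their partners, and 10 the reverse. The other members were called in one of those contrasts alone or, in 1 case, in neither. Splits of the interaction calls were counted in the members only.

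The highest interaction among the members was in Nitab4.5_0001743g0010. It had 2421.95, 2397.12 and 2595.57 FPKM in WTR, 1246.87, 1383.75 and 1255.23 in TWTR, 605.52, 622.44 and 603.74 in CR, and 1724.17, 1764.44 and 1723.85 in TCR. The T-prefixed group was below its partner in one pair and above it in the other, with no overlap among the 4 groups. The interaction was 2.44 (SE 0.0714, limma adjusted p 1.55e-09). Nitab4.5_0000037g0340 followed with 2.32 (SE 0.121, limma adjusted p 1.14e-07). The lowest values were in Nitab4.5_0000742g0010, at -2.24 and without a test, and in Nitab4.5_0002070g0010, at -1.76 (SE 0.0963, limma adjusted p 1.67e-07).

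**Figure D5:**
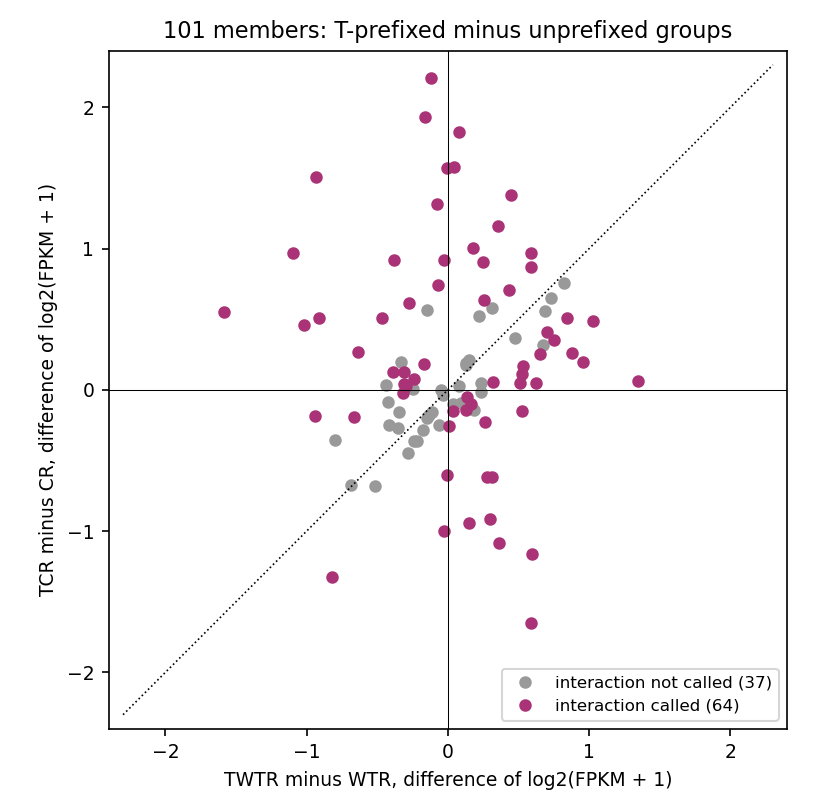
Each point is a member, with its TWTR minus WTR difference on the x axis and its TCR minus CR difference on the y axis, both of log2(FPKM + 1); the dotted line marks equal differences, and colour marks the 64 members whose interaction was called. Points reach farther along the y axis, from -1.65 to 2.20, than along the x axis, from -1.59 to 1.34.

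Some members hardly moved. Nitab4.5_0000551g0080 had the smallest ratio of highest to lowest library, with values from 996.9 to 1118.36 FPKM. It averaged 1086 ± 5.30 in CR, 1087 ± 30.3 in TCR, 1059 ± 23.3 in WTR and 1023 ± 23.7 in TWTR (SD, n = 3 each). The F test did not pass (limma adjusted p 0.201), nor did any of the 5 contrasts. In all, 8 members were called in none of the contrasts, a number not set against other models.

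Members shared scaffolds in a few cases. Their identifiers fell on 91 scaffold parts, 9 of which held 2 or more members, 19 in all. The pair on the scaffold of Nitab4.5_0000037g0360 had CR minus WTR differences of -2.02 and -2.07. On the scaffold of Nitab4.5_0000368g0200, the other member, 3 listed models away, had 0.28 where this one had -1.87, so members on one scaffold did not always change together.

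Beyond the members, 52 models reached 1000 FPKM in the mean of at least 1 group but not over all 12 libraries. CR had most of these, with 28, followed by WTR with 20, TCR with 14 and TWTR with 11. The highest in WTR was Nitab4.5_0002857g0010, at 1938, 2017 and 1937 FPKM there and at 481.5 to 900.6 elsewhere. In CR it was Nitab4.5_0000407g0130, at 2269, 2020 and 2096 FPKM against 316.2 to 539.8 in the other 9 libraries. In TWTR Nitab4.5_0001014g0160 led with 1074, 2036 and 1140 FPKM, the second of these values standing apart, and in CR it had 280.5, 226.3 and 158.3. In TCR Nitab4.5_0000727g0010 led with 1065, 1184 and 1285 FPKM, and it had 173.8, 267.4 and 317.8 in CR.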

How the data were processed

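Messenger RNA of roots was measured in 12 libraries. Per the labels' protocols, RNA was taken up in TRIzol and sequenced on a DNBSEQ-T7 (stated read length 300 bp), reads were cleaned with fastp and aligned with STAR, and transcripts were assembled with StringTie2 and compared with known genes by Cuffcompare. The deposited FPKM values were used as given, per the file headers; the program that made them, the genome build and the annotation release are not given in the sources used here.

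Models averaging 1 FPKM or more, 19929 in number, entered a limma 3.58.1 fit (R 4.3.3) on log2(FPKM + 1). It estimated the 4 groups jointly over the 12 libraries, with trended and robust moderation of variances. Benjamini-Hochberg adjustment ran over all models tested in a contrast, with a threshold of 0.05. Sums, shares and ranks were computed with pandas 2.3.3. Relative depth came from the commonest ratio of values of at least 0.2 FPKM among 3953 models at 0 in at least 4 libraries. The procedure was tested on simulated data with independent noise, in which few models changed, and those in CR alone. Far more models were called in the real data, so that test does not vouch for the calls given here.

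Members, lists and the naming rule were chosen with earlier results of these data known. Named models are the 5 members with the highest mean; in each contrast the 2 members with the largest rise and the 2 with the largest fall, called and without overlap of replicates in the contrasts of 2 groups; the models next to the limit of 1000 FPKM; the highest model, and the highest that is no member, in each group; and the members with the widest and the narrowest range. The alternatives were pseudocounts, filters, 4 scalings, fits of 2 groups, the replicate number as a term, each library left out, and other rules for membership. Gene lists by product name and marker lists could not be used, because no identifier could be named.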

Additional observations from a re-analysis of the deposited data

Results flagged for a closer look

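The change from an unprefixed group to its T-prefixed partner differed between CR and WTR roots in part of the members. By the interaction test in limma, 34 members had a positive value (11.5% of all models tested) and 30 a negative one (17.8%). Among models of 500 to 1000 FPKM 47.6% were called in either direction. With quantile normalization 29 members were positive and 34 negative, so the balance of signs depended on the scaling. Among the named members above 1000 FPKM in more than 1 group the interaction was positive, on the log2 scale, in Nitab4.5_0000037g0360 (1.75), Nitab4.5_0002224g0100 (0.805), Nitab4.5_0000037g0340 (2.32), Nitab4.5_0000073g0400 (2.07), Nitab4.5_0000368g0200 (2.09) and Nitab4.5_0001743g0010 (2.44). It was negative in Nitab4.5_0002070g0010 (-1.76), Nitab4.5_0000754g0170 (-0.501), Nitab4.5_0000500g0210 (-0.295), Nitab4.5_0002944g0200 (-0.619), Nitab4.5_0002827g0020 (-1.28) and Nitab4.5_0000630g0010 (-0.542). The naming rule took some of these for a large interaction or for differences that enter into it. High CR values of Nitab4.5_0000754g0170 and high TWTR values of Nitab4.5_0002944g0200 helped make these models members. Their interactions are therefore partly built in.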

How the results depend on the processing

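The members' share depended on how members were chosen, while CR stayed lowest under each rule tried. Every rule drew on the same 12 libraries, so models high in CR alone tend to be left out. Models that were not members reached a group mean of 1000 FPKM in 28 cases in CR, 20 in WTR, 14 in TCR and 11 in TWTR. A low CR share may thus be partly built into each rule, and their agreement is no separate evidence. A median of at least 1000 FPKM chose 98 models (93 of them members) and gave 14.6% in CR, 18.2% in TCR and 18.4% in TWTR. The limit of 1000 applied after rescaling to TPM chose 71 and gave 12.2% in CR, 15.6% in TCR, 14.8% in WTR and 15.8% in TWTR. Without the leading model the shares were 14.8%, 17.2%, 16.2% and 17.1% in the same order. Leaving out 1 library moved no share beyond 17.41% to 17.7% in WTR, 18.48% to 18.6% in TWTR, 15.13% to 15.31% in CR and 18.38% to 18.39% in TCR. On leaving out 1 library, calls in CR minus WTR ran from 28 to 38 higher and 30 to 35 lower, in TCR minus TWTR from 14 to 23 higher, in TWTR minus WTR from 33 to 42 and 23 to 33, in TCR minus CR from 41 to 45 and 19 to 27, and in the interaction from 30 to 36 and 26 to 31. Counts of members called stayed within 1.5 times under every alternative, except that lower calls in TCR minus TWTR ranged from 7 (without TCR replicate 2) to 13 on leaving out libraries. Under quantile normalization the CR minus WTR difference of Nitab4.5_0000143g0170 turned from -0.18 to 0.287. This model ranked 4th in each WTR library and 3rd, 2nd and 2nd in those of CR. The cause of the turn was not tested. No scaling moved the median of all models by more than 0.0874 on the log2 scale. Replicates with the same number showed no strong shared deviation (correlations from -0.0888 to 0.0991). With 3 libraries per group this cannot exclude that libraries of the same number were handled together. With the replicate block, 32 members were higher and 33 lower in CR minus WTR, 19 and 10 in TCR minus TWTR, 38 and 30 in TWTR minus WTR, 43 and 24 in TCR minus CR, and 32 and 31 in the interaction. Calls under these alternatives were counted in the members only and not set against all models tested. Whether a changed count is particular to the members is therefore not known. Depth is known only in relative terms, so no counting intervals were computed.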
